A study of Caenorhabditis elegans with 20 samples.

Results

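The C-type lectin genes of *Caenorhabditis elegans* carry symbols that start with *clec-*. They were taken from the deposited count table by their WormBase identifiers, and 200 of its 22736 genes belonged to the family. Of the 240 *clec* genes of any gene type in the annotation, 40 had no row and were not analysed here. All 200 members are annotated as protein-coding, and the deposited counts left out pseudogenes. The gene types of the 40 were not examined. In the table, 43 of the 200 members had a mean of at least 20 counts over the 20 libraries and 157 had fewer.

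C-type lectins are defined by a shared protein fold, the C-type lectin-like domain, which in many animal lectins binds sugars in the presence of calcium. The family is greatly expanded in *C. elegans*, where many members are predicted to be secreted, several are made in the intestine, and subsets change in expression when animals meet pathogenic bacteria. Some of the pathogen-responsive members depend on PMK-1, the p38 mitogen-activated protein kinase of worm immunity.

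RNA came from bodies of synchronized gravid adults grown at 20 C on *E. coli* OP50, with the eggs left out, from 4 groups with 5 biological replicates each. These were *dhgd-1(tm6671)* animals (Δ*dhgd-1* mutants) on medium with 64 nM vitamin B12 (adenosylcobalamin), Δ*dhgd-1* mutants without supplement, wild-type N2 animals with the same supplement, and wild-type animals without it. Strains were maintained on plates with 64 nM vitamin B12, so unsupplemented means without it on the experimental plates. The allele removes a large stretch of the 5′ end of *dhgd-1*, the gene for D-2-hydroxyglutarate dehydrogenase, and the strain had been backcrossed 3 times to N2, so that mutant values rest on 1 allele in 1 strain. Values are given for replicates 1, 2, 5, 6 and 7 in that order, as CPM, the counts of a gene scaled to a common library total.

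Library totals ranged from 2837943 to 15457950 counts. Reads were made with Cel-seq2, which reads transcripts next to their 3′ end, so *dhgd-1* counts do not check a deletion at the other end of the gene. *dhgd-1* had 5.86 to 22.5 CPM in supplemented mutants, 18.2 to 59.3 CPM in unsupplemented mutants, 5.87 to 9.21 CPM in supplemented wild type and 15.1 to 28.8 CPM in unsupplemented wild type. Library names fell into 2 series, olga (replicates 1 and 2) and s (replicates 5, 6 and 7), which were taken as the sequencing batches. Supplemented wild-type replicate 7 stood apart, with 1633 CPM over 5 body wall muscle markers, the lowest of all 20 libraries. Its intestine (1029 CPM), hypodermis (4040 CPM), neuron (270 CPM) and germline (4987 CPM) marker sums were the lowest as well. So was its median correlation with its group (0.92). Hypodermis markers summed highest in wild-type replicate 1, at 28927 CPM without and 22214 CPM with the supplement. Replicate 1 of both mutant groups had the highest intestinal marker sums of all libraries, and unsupplemented mutant replicate 1 also the highest sums of pharynx (419 CPM), neuron (915 CPM) and sperm markers. Summed markers of sperm and of early embryos reached at most 12.9 and 2.72 CPM in any library.

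The family made up 0.272% to 0.579% of a library's counts, and most of that came from very few genes. *clec-88* and *clec-87* together held 66.6% of all family counts, the 10 members with the highest mean CPM held 89.2%, and the 43 members with a mean of at least 20 counts held 99.1%. At the other end, 105 members had a mean under 1 count and 6 had no count in any library. Between 81 and 123 members were detected in a library, and 54 in all 20.

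**Figure D1:**
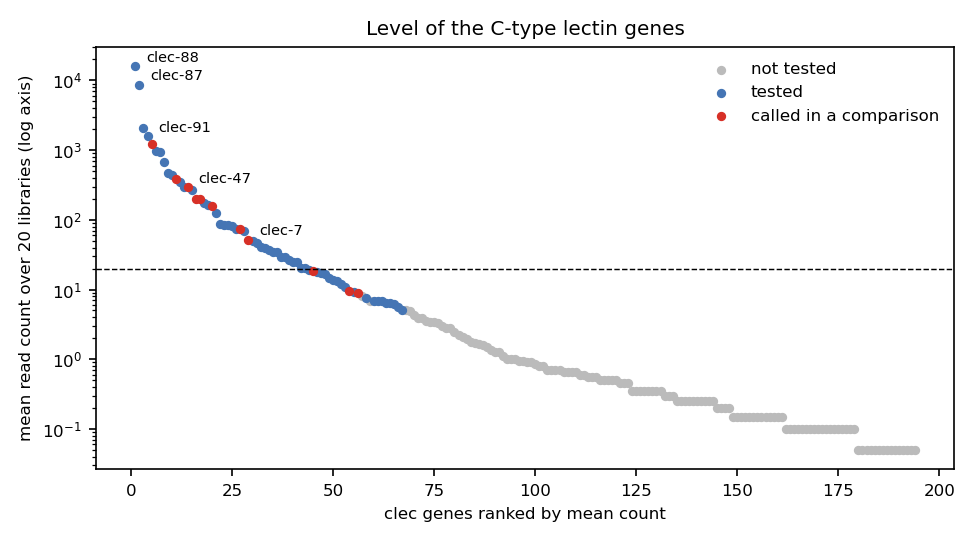
Mean read count over 20 libraries (log axis) of the *clec* genes, ranked; grey points were not tested, blue points were tested and red points were called in at least 1 comparison, and the dashed line is at 20 counts. The 6 members without a count are not drawn. *clec-88* and *clec-87* stand above all others, and 157 members lie under the line.

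*clec-88* and *clec-87* averaged 1434 ± 497 and 867 ± 204 CPM in supplemented mutants and 1518 ± 562 and 866 ± 266 CPM in unsupplemented mutants (SD, n = 5 each). In supplemented wild type they averaged 1701 ± 914 and 906 ± 249 CPM, and in unsupplemented wild type 1653 ± 625 and 955 ± 172 CPM. Neither gene passed the test in any comparison, and their fitted log2 fold changes lay between -0.33 and 0.07. Supplemented wild-type replicate 7, the library that stood apart, had 3113 CPM of *clec-88*, against 835 to 2050 CPM in the others of its group. The next members by mean CPM were *clec-1* (260), *clec-91* (175), *clec-190* (114), *clec-63* (108), *clec-83* (99.6), *clec-65* (61.4), *clec-150* (57.4) and *clec-50* (54.8). Of these, only *clec-190* was called in the model described next.

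The family total overlapped between all 4 groups. It averaged 3704 ± 654 CPM in supplemented mutants, 3880 ± 603 CPM in unsupplemented mutants, 4044 ± 1148 CPM in supplemented wild type and 3753 ± 742 CPM in unsupplemented wild type. Supplemented wild-type replicate 7, the library that stood apart, had 5793 CPM, against 2783 to 4325 CPM in the others of its group. Without *clec-88* and *clec-87* the remaining members summed to 1403 ± 213, 1497 ± 214, 1438 ± 159 and 1145 ± 232 CPM in the same order of groups (SD, n = 5), and the ranges again overlapped. By same-numbered pairs, this remainder was larger in unsupplemented mutants than in unsupplemented wild type in 5 of 5 pairs, and among the supplemented animals it was larger in the mutant in 1 of 5. It was larger with vitamin B12 in 1 of 5 mutant pairs and in 4 of 5 wild-type pairs. No test was run on these sums.

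Several members differed between the series of library names. *clec-88*, *clec-87* and *clec-65* were higher in every library of the s series than in any of the olga series, with mean CPM ratios of 2.00, 1.53 and 3.92. *clec-190* was 3.38 times higher on average in the s series and *clec-41*, studied in defence against *Bacillus thuringiensis*, 6.23 times higher in the olga series, with overlapping libraries. In all, 16 tested members differed by more than 2-fold in mean CPM between the series. The share of all tested genes with such differences was not computed, so these counts are not read as a trait of the family. The series was a term in the model, since the study also corrected for batch. Values within a series are given beside each call where the gene passed the low-count filter in that series.

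**Figure D2:**
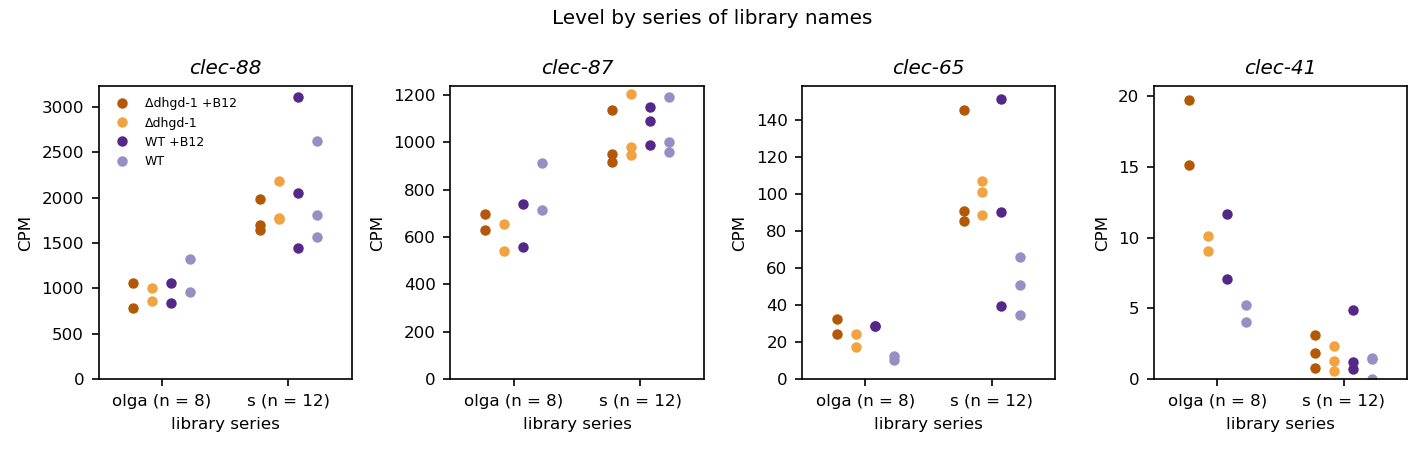
CPM of *clec-88*, *clec-87*, *clec-65* and *clec-41* by series of library names, with 8 olga libraries and 12 s libraries, each point a library coloured by group. The first 3 genes do not overlap between the series, and *clec-41* is higher in most olga libraries.

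After the filter on low counts, 65 members were among the 11270 genes tested: all 43 with a mean of at least 20 counts and 22 others. Calls needed an adjusted p under 0.05 (edgeR, Benjamini-Hochberg over all 11270 genes) and a fold change over 1.5. Across all comparisons 11 members were called. The filter keeps a gene that is high in 1 group, so low members such as *clec-67*, *clec-70* and *clec-210* were tested because of the groups in which they had counts.

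Vitamin B12 in Δ*dhgd-1* mutants was followed by lower levels of *clec-47*, *clec-48*, *clec-5* and *clec-70*, and by no called increase. These were 4 of 65 tested members, all lower, where 1.86% of all tested genes were called, 1.02% lower and 0.843% higher. At an unadjusted p under 0.05 there were 13 members (20%), against 10.5% of all genes. The median log2 fold change was -0.03 over the family and 0.01 over all genes tested.

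*clec-47* had 0.398, 1.56, 1.02, 0.647 and 0.751 CPM in supplemented mutants, against 116, 99.7, 52.7, 63.9 and 66.5 CPM in unsupplemented mutants. The 5 supplemented libraries held 41 counts of the gene in all and the 5 unsupplemented libraries 3622. The mean was 91.03-fold lower with vitamin B12 (log2 fold change -6.48, SE 0.38, adjusted p = 5.75e-11), and the groups were far apart in each of 5 same-numbered pairs. Within the olga series the value was -6.99 and within the s series -6.19, with adjusted p of 0.0274 and 2.92e-07.

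*clec-48* had 25.6, 12.8, 12.5, 14.5 and 9.01 CPM in supplemented mutants, against 90.0, 43.9, 37.98, 26.02 and 29.6 CPM in unsupplemented mutants. The ranges did not overlap, although the highest supplemented and the lowest unsupplemented library were close (log2 fold change -1.499, SE 0.36, adjusted p = 0.0228). The value was -1.81 in the olga and -1.31 in the s series, and neither series alone passed. The call was lost without unsupplemented mutant replicates 1 or 5, or supplemented mutant replicates 2, 5 or 7, each left out alone (adjusted p 0.0532 to 0.104).

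*clec-5* had 1.72, 1.56, 3.74, 7.18 and 5.18 CPM in supplemented mutants, against 11.97, 7.58, 11.8, 10.4 and 16.1 CPM in unsupplemented mutants. Every supplemented library was lower than every unsupplemented one (log2 fold change -1.68, SE 0.44, adjusted p = 0.0439). The value was -2.57 in the olga and -1.17 in the s series, neither past the threshold. Only the fits that left out replicate 6 of either group kept the call, and leaving out replicate 1, 2, 5 or 7 of either group gave adjusted p of 0.0513 to 0.149.

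*clec-70* had 0.133, 0, 0.340, 0.0647 and 0.376 CPM in supplemented mutants, against 2.09, 0.459, 3.03, 3.002 and 3.605 CPM in unsupplemented mutants. These are 11 and 142 counts over 5 libraries each, and no library overlapped (log2 fold change -3.67, SE 0.68, adjusted p = 0.00194). In the s series the value was -3.58 (adjusted p = 0.0289), and in the olga series the gene did not pass the filter. Leaving out any 1 library kept this call. The gene passed the filter mainly through its counts in unsupplemented mutants, the higher group here. These fits are therefore not separate support for the call.

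Across the family 5 members did not overlap between these groups, where 2.35% of all tested genes did not, and the fifth was *clec-196* (log2 fold change -1.20, adjusted p = 0.444). With replicate number as a block in the model the calls were 6: *clec-62* (-0.74, adjusted p = 0.0233) and *clec-84* (1.19, adjusted p = 0.0442) joined the 4. *clec-62* had 33.9, 21.4, 20.9, 20.2 and 12.5 CPM in supplemented mutants, against 39.7, 48.2, 37.8, 32.2 and 24.2 CPM in unsupplemented mutants, lower in each pair with ranges that overlapped. Without unsupplemented mutant replicate 1 or 5, or supplemented mutant replicate 2, 5 or 7, the calls were 2, *clec-47* and *clec-70*.

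**Figure D3:**
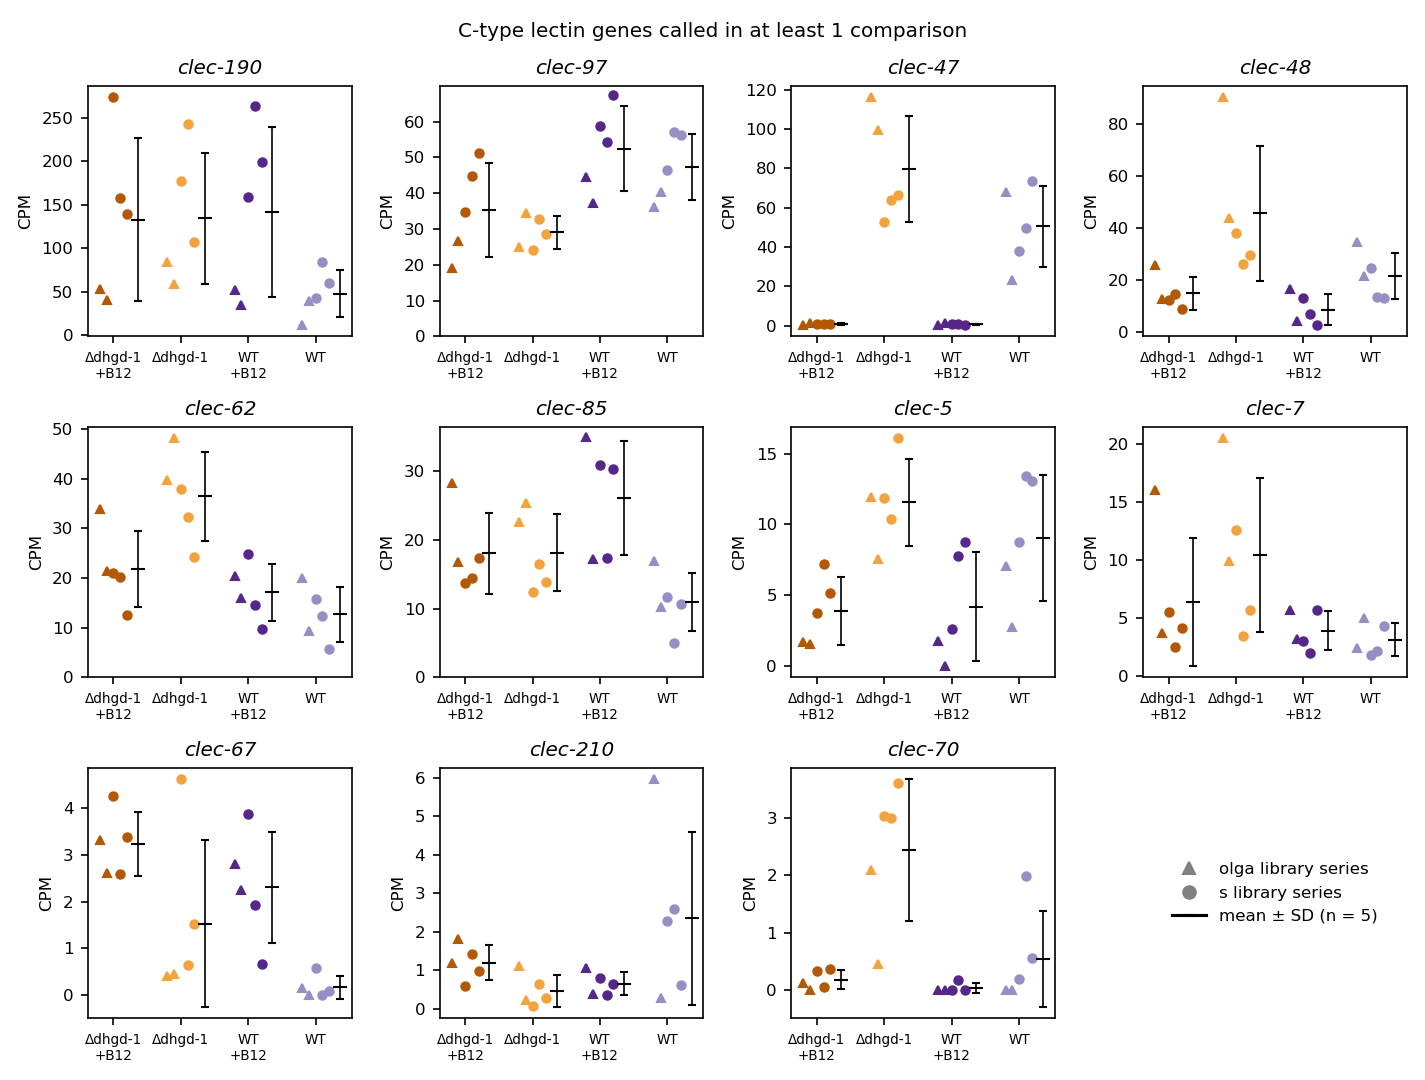
CPM of the 11 members called in at least 1 comparison, in each library of the 4 groups; triangles are the olga series, circles the s series, and black bars the mean ± SD (n = 5). *clec-47* lies near 0 in all 10 supplemented libraries of both strains, while the other genes show smaller differences and more spread.

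Vitamin B12 in wild-type animals was followed by a lower level of *clec-47* and higher levels of *clec-67*, *clec-85* and *clec-190*. These were 4 of 65 tested members, where 1.45% of all tested genes were called. Calls for higher levels made up 3 of 65 members, against 0.772% of all genes, and calls for lower levels 1 member, against 0.674%. At an unadjusted p under 0.05 there were 18 members (27.7%), against 7.85% of all genes. The median log2 fold change was 0.10 over the family and -0.03 over all genes tested.

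*clec-47* had 0.352, 1.13, 0.632, 1.01 and 0.469 CPM in supplemented wild type, against 68.0, 23.3, 37.98, 49.6 and 73.3 CPM in unsupplemented wild type. The mean was 70.2-fold lower with the supplement (log2 fold change -6.08, SE 0.38, adjusted p = 1.82e-10), and no library of either group came near the other group. The value was -5.73 in the olga series (adjusted p = 0.0274) and -6.26 in the s series (adjusted p = 1.8e-07). The gene was called in every fit that was run, in both strains.

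*clec-85*, known from other work as a gene induced by *Pseudomonas aeruginosa* through PMK-1, had 34.9, 17.1, 30.9, 17.3 and 30.2 CPM in supplemented wild type, against 16.9, 10.2, 11.7, 5.04 and 10.7 CPM in unsupplemented wild type. The groups did not overlap, by a small margin (log2 fold change 1.25, SE 0.25, adjusted p = 0.00568, higher in 5 of 5 pairs). The value was 0.95 in the olga series, not past the threshold, and 1.44 in the s series (adjusted p = 0.0344). The call was kept without any 1 library. Reads of *clec-85* overlap 2 other annotated genes, Y54G2A.40 on its strand and Y54G2A.49 on the other, and the counting of such reads is not given in the sources used here.

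*clec-67*, a further PMK-1-dependent gene induced by *P. aeruginosa*, had 2.82, 2.26, 3.88, 1.93 and 0.657 CPM in supplemented wild type, against 0.161, 0, 0.573, 0 and 0.0791 CPM in unsupplemented wild type. The counts were 91 and 8 over 5 libraries each, a pooled ratio of 11.02 with a 95% exact binomial interval of 5.36 to 26.3, which covers counting error only. The groups did not overlap (log2 fold change 3.50, SE 0.77, adjusted p = 0.0109). The value was 4.38 in the olga and 3.13 in the s series, neither past the threshold. Without unsupplemented wild-type replicate 7 the adjusted p was 0.0551, and without replicate 5 of that group, which held most of its counts, the log2 fold change was 4.82.

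*clec-190* had 51.8, 35.2, 158, 263 and 199.6 CPM in supplemented wild type, against 12.1, 39.8, 42.6, 84.4 and 60.5 CPM in unsupplemented wild type. The groups overlapped and the gene was higher in 4 of 5 pairs (log2 fold change 1.34, SE 0.32, adjusted p = 0.0301). Within the olga series the value was 0.82 and within the s series 1.68 (adjusted p = 0.0583). The call was lost without unsupplemented wild-type replicates 1, 5 or 7 or supplemented wild-type replicate 6 (adjusted p 0.064 to 0.0856).

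Between these groups 4 members did not overlap, where 1.36% of all tested genes did not: *clec-47*, *clec-67*, *clec-85* and *clec-43* (log2 fold change -1.72, adjusted p = 0.344). With replicate number as a block the calls were 8, adding *clec-48* (-1.42, adjusted p = 0.00128), *clec-65* (0.96, adjusted p = 0.0156), *clec-66* (0.97, adjusted p = 0.0336) and *clec-50* (0.93, adjusted p = 0.0138). *clec-48* had 16.6, 4.14, 13.1, 6.79 and 2.82 CPM in supplemented wild type, against 34.5, 21.4, 24.5, 13.4 and 13.2 CPM in unsupplemented wild type, lower in each pair. Without supplemented wild-type replicate 7, the library that stood apart, the calls were 6: the same 4 with *clec-65* and *clec-186*.

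Between Δ*dhgd-1* mutants and wild type without vitamin B12, 7 of 65 tested members were called, where 2.81% of all tested genes were. *clec-62*, *clec-190*, *clec-67*, *clec-7* and *clec-70* were higher in mutants and *clec-97* and *clec-210* lower. Calls for higher levels made up 5 members, against 1.82% of all genes, and calls for lower levels 2 members, against 0.994%. At an unadjusted p under 0.05 there were 21 members (32.3%), against 15.1% of all genes. The median log2 fold change was 0.27 over the family, with 41 of 65 values above 0, and -0.03 over all genes tested. Scaling by library totals alone moved the median of all genes to 0.10 and kept 6 of the 7 calls, all but *clec-97*, and added *clec-4*.

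*clec-62* had 39.7, 48.2, 37.8, 32.2 and 24.2 CPM in unsupplemented mutants, against 20.0, 9.33, 15.8, 12.4 and 5.77 CPM in unsupplemented wild type. All mutant libraries were above all wild-type libraries (log2 fold change 1.36, SE 0.29, adjusted p = 0.00926). The value was 1.49 in the olga and 1.33 in the s series, neither past the threshold alone. It was the only call of this comparison that was kept without each of the 10 libraries in turn and without a series term.

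*clec-190* had 84.3, 59.3, 178, 242 and 108 CPM in unsupplemented mutants, against 12.1, 39.8, 42.6, 84.4 and 60.5 CPM in unsupplemented wild type. It was higher in 5 of 5 pairs, but the groups overlapped, with the s libraries high in both (log2 fold change 1.36, SE 0.32, adjusted p = 0.0172). The value was 1.45 in the olga and 1.36 in the s series, neither past the threshold. The adjusted p was 0.0508 to 0.0646 without mutant replicate 1 or wild-type replicate 1.

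*clec-97* had 25.05, 34.5, 24.05, 32.8 and 28.7 CPM in unsupplemented mutants, against 36.2, 40.3, 46.5, 57.0 and 56.3 CPM in unsupplemented wild type. Every mutant library was lower than every wild-type library (log2 fold change -0.81, SE 0.20, adjusted p = 0.0263). The value was -0.43 in the olga and -1.02 in the s series, neither past the threshold. The call was lost without mutant replicates 1, 5, 6 or 7 or wild-type replicates 1, 2 or 6 (adjusted p 0.0526 to 0.111). *clec-98* lies over *clec-97* on the opposite strand and had 2 counts in all 20 libraries.

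*clec-7* had 20.5, 9.88, 12.6, 3.46 and 5.70 CPM in unsupplemented mutants, against 2.42, 4.94, 1.81, 2.14 and 4.27 CPM in unsupplemented wild type. It was higher in 5 of 5 pairs with overlapping ranges (log2 fold change 1.52, SE 0.41, adjusted p = 0.0422). The value was 2.05 in the olga and 1.27 in the s series, neither past the threshold. The call was lost without mutant replicates 1 or 5 or wild-type replicates 1, 2, 5 or 6 (adjusted p 0.073 to 0.174).

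*clec-67* had 0.417, 0.459, 4.62, 0.637 and 1.51 CPM in unsupplemented mutants, against 0.161, 0, 0.573, 0 and 0.0791 CPM in unsupplemented wild type. Mutant replicate 5 held 64 of the 97 mutant counts and wild-type replicate 5 held 6 of the 8 wild-type counts, and the groups overlapped (log2 fold change 2.85, SE 0.77, adjusted p = 0.0368). The value was 1.83 in the olga and 3.11 in the s series, neither past the threshold. Without mutant replicate 5 it was 1.90 (adjusted p = 0.226), and without wild-type replicate 5 it was 4.19 (adjusted p = 0.0153). The call was also lost without mutant replicate 7 or wild-type replicates 1, 2, 6 or 7 (adjusted p from 0.0551).

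*clec-70* had 2.09, 0.459, 3.03, 3.002 and 3.605 CPM in unsupplemented mutants, against 0, 0, 0.191, 1.99 and 0.554 CPM in unsupplemented wild type. The groups overlapped through mutant replicate 2 and wild-type replicates 6 and 7 (log2 fold change 2.19, SE 0.61, adjusted p = 0.0483). It was lost without any 1 library except mutant replicate 2 and wild-type replicate 6 (adjusted p 0.0674 to 0.137), and without wild-type replicate 6 the log2 fold change was 3.32. In the s series the value was 1.82, not past the threshold.

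*clec-210* had 1.11, 0.230, 0.0722, 0.637 and 0.288 CPM in unsupplemented mutants, against 5.96, 0.274, 2.29, 2.60 and 0.633 CPM in unsupplemented wild type. The counts were 21 and 87, and the groups overlapped (log2 fold change -2.47, SE 0.61, adjusted p = 0.0219). The call was lost without mutant replicates 2, 5 or 7 or wild-type replicates 1, 5 or 6 (adjusted p 0.0532 to 0.154). In the s series the value was -2.59, not past the threshold, and *srt-56* overlaps the gene on the opposite strand.

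Without overlap between the groups were 4 members, where 2.89% of all tested genes did not overlap: *clec-62*, *clec-97*, *clec-66* and *clec-49*. *clec-49*, known to bind *Serratia marcescens*, had 6.96, 6.43, 5.92, 6.46 and 5.48 CPM in unsupplemented mutants, against 5.16, 4.12, 4.10, 2.90 and 2.85 CPM in unsupplemented wild type, and was not called (log2 fold change 0.60, SE 0.24, adjusted p = 0.212). With replicate number as a block the calls were 11, adding *clec-48* (0.92, adjusted p = 0.0212), *clec-63* (0.83, adjusted p = 0.00957), *clec-65* (0.83, adjusted p = 0.0251) and *clec-4* (2.67, adjusted p = 0.0306). Without wild-type replicate 1 only *clec-62* was called, and without mutant replicate 5 only *clec-62* and *clec-190*.

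Markers of tissues were read beside these calls, because in RNA of whole bodies fewer cells of a type and less RNA per cell cannot be told apart. Among 8 tested intestinal markers, *cpr-1*, a gut cysteine protease, was higher in unsupplemented mutants (log2 fold change 1.46, adjusted p = 0.0149). The intestinal markers summed to 1675 to 4429 CPM in unsupplemented mutants and 1506 to 2307 CPM in unsupplemented wild type, with none at 0 in every library of a group. The highest mutant value was replicate 1, and the next was 2468 CPM. With vitamin B12 in mutants *cpr-1* was lower (-1.29, adjusted p = 0.0439) and *mtl-2*, a metallothionein, higher (1.31, adjusted p = 0.0223), and the sum was 1949 to 4585 CPM, again highest in replicate 1. In supplemented wild type the sum was 1029 to 2563 CPM. No tested marker of hypodermis, body wall muscle, pharynx, neurons, germline, sperm, early embryos or coelomocytes was called in any comparison. Only 4 of 7 hypodermis, 2 of 7 sperm and 1 of 6 early embryo markers were tested. The 4 tested pharynx markers had median log2 fold changes of -1.25 with vitamin B12 in wild type and -0.84 in mutants. Between the strains these medians were 0.19 without and 0.60 with the supplement. The absence of a call thus does not mean equal levels. Unsupplemented mutant replicate 1 also held the highest *clec-48* and *clec-7* values, and supplemented mutant replicate 1 the highest *clec-7*, *clec-48*, *clec-62* and *clec-85* values of their groups. Without unsupplemented mutant replicate 1 the calls were 3 between the unsupplemented strains (*clec-62*, *clec-67* and *clec-210*) and 2 with vitamin B12 in mutants (*clec-47* and *clec-70*). Without supplemented mutant replicate 1 they were 3 with vitamin B12 in mutants (*clec-47*, *clec-48* and *clec-70*). The part of tissue composition in the lectin values was not tested.

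Between the strains with vitamin B12 no member was called by edgeR or by DESeq2, where 0.55% of all tested genes were called by edgeR. At an unadjusted p under 0.05 there were 6 members of 65 (9.23%), against 6.79% of all genes. The median log2 fold change was 0.00 over the family and 0.01 over all genes, and no member had groups without overlap, against 0.852% of all genes. Of the 6, *clec-1*, *clec-8*, *clec-85*, *clec-97* and *clec-146* were on the lower side in mutants (log2 fold change -0.83 to -0.50) and *clec-49* on the higher side (0.56), with adjusted p of 0.263 to 0.696.

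The members called between the unsupplemented strains had these supplemented values. *clec-62* had 33.9, 21.4, 20.9, 20.2 and 12.5 CPM in supplemented mutants, against 20.4, 16.002, 24.7, 14.6 and 9.67 CPM in supplemented wild type (log2 fold change 0.25, SE 0.29, adjusted p = 0.919). *clec-190* had 52.9, 41.2, 273, 158 and 139 CPM in supplemented mutants, against 51.8, 35.2, 158, 263 and 199.6 CPM in supplemented wild type (-0.12, SE 0.31, adjusted p = 0.974). Both pairs of groups overlapped widely.

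*clec-97* had 19.1, 26.6, 34.6, 44.7 and 51.2 CPM in supplemented mutants, against 44.4, 37.3, 58.7, 54.2 and 67.5 CPM in supplemented wild type (-0.64, SE 0.20, adjusted p = 0.301). It was on the lower side in the mutant of each pair, with overlapping ranges. *clec-67* had 3.31, 2.61, 4.26, 2.59 and 3.38 CPM in supplemented mutants, against 2.82, 2.26, 3.88, 1.93 and 0.657 CPM in supplemented wild type (0.45, SE 0.53, adjusted p = 0.922). *clec-70* was nearly absent from both, with 11 counts in supplemented mutants and 2 in supplemented wild type, these 2 in replicate 6. The pooled ratio was 4.32 with an exact 95% interval of 0.943 to 40.1, which covers counting error only.

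*clec-7* had 16.04, 3.65, 5.53, 2.46 and 4.13 CPM in supplemented mutants, against 5.64, 3.20, 2.98, 1.93 and 5.63 CPM in supplemented wild type (log2 fold change 0.55, SE 0.41, adjusted p = 0.88), with overlapping ranges. *clec-210* had 1.19, 1.83, 0.596, 1.42 and 0.976 CPM in supplemented mutants, against 1.06, 0.377, 0.813, 0.367 and 0.657 CPM in supplemented wild type (0.80, SE 0.62, adjusted p = 0.883). Its fitted value was above 0 here and at -2.47 between the unsupplemented strains, and only the unsupplemented difference passed the test.

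**Figure D4:**
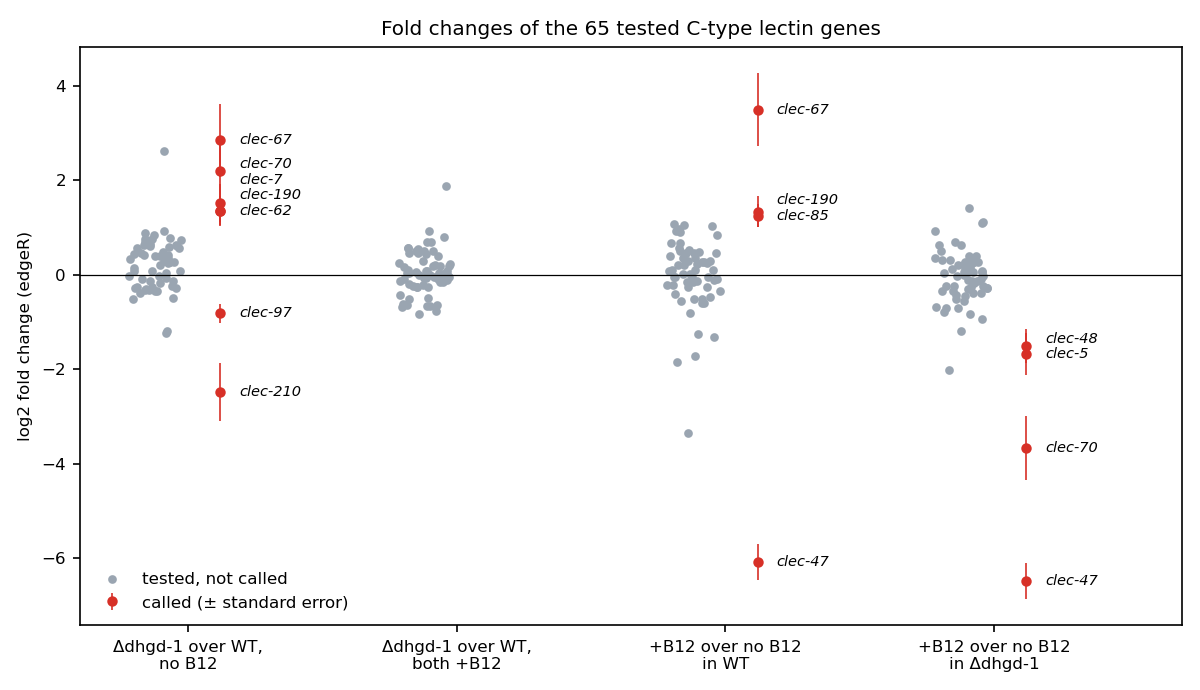
Fitted log2 fold changes (edgeR) of the 65 tested *clec* genes in 4 comparisons; grey points were not called, and red points with standard errors were called. *clec-47* lies below -6 in both strains, and no member is called between the supplemented strains.

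Whether the effect of vitamin B12 differed between the strains was tested as an interaction, the mutant effect minus the wild-type effect. No member passed by edgeR or DESeq2, where 0.0444% of all tested genes did, and 7 members (10.8%) had an unadjusted p under 0.05, against 4.09% of all genes. The median difference was -0.24 over the family and 0.03 over all genes. The lowest adjusted p were those of *clec-210* (3.28, SE 0.87, adjusted p = 0.339), *clec-85* (-1.19, SE 0.35, adjusted p = 0.551) and *clec-190* (-1.48, SE 0.45, adjusted p = 0.667). Without a filter on low counts *clec-190* and *clec-210* passed.

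The comparisons share groups, so that a high or low unsupplemented wild-type value enters both the strain comparison and the wild-type effect of vitamin B12. Side by side, *clec-190* had a log2 fold change of 1.34 with vitamin B12 in wild type and -0.14 in mutants (SE 0.31, adjusted p = 0.956). *clec-85* had 1.25 in wild type and 0.06 in mutants (SE 0.24, adjusted p = 0.971), where it had 28.2, 16.7, 13.7, 14.4 and 17.3 CPM with the supplement and 22.5, 25.3, 12.3, 16.5 and 13.8 CPM without it. *clec-67* had 3.50 in wild type and 1.10 in mutants (SE 0.53, adjusted p = 0.472), with a difference of -2.40 (SE 0.96, adjusted p = 0.999). For none of the 3 was the difference between strains past the threshold.

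*clec-48*, *clec-5* and *clec-70*, called with vitamin B12 in mutants, had log2 fold changes of -1.31 (adjusted p = 0.0902), -1.25 (adjusted p = 0.268) and -3.35 (adjusted p = 0.131) in wild type. *clec-5* had 1.76, 0, 2.62, 7.80 and 8.73 CPM in supplemented wild type, against 7.09, 2.74, 8.78, 13.4 and 13.1 CPM in unsupplemented wild type. The differences between the strains were -0.19, -0.43 and -0.32, each with an adjusted p of 0.999.

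On the chromosomes the family lay mostly in clusters. In the Ensembl annotation of WBcel235, 117 of 200 members had another member within 10000 bases, in 33 clusters, and 39 of these 117 were tested (33.3%), against 26 of the 83 others (31.3%). Chromosome V held 68 members, IV 49, II 41, I 26, III 13 and X 3. Of the 11 called members, 6 lay in clusters and 5 did not.

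*clec-62* (chrII:12893062-12895128, minus strand) stands at the end of a cluster of 5, which holds also *clec-63*, *clec-64*, *clec-65* and *clec-66*. Its neighbour *clec-63*, 509 bases away, had 189, 153, 118, 90.2 and 83.4 CPM in unsupplemented mutants, against 105, 62.02, 74.1, 54.2 and 35.2 CPM in unsupplemented wild type (log2 fold change 0.77, SE 0.27, adjusted p = 0.155). *clec-65* had 17.4, 24.3, 107, 101 and 88.7 CPM in unsupplemented mutants, against 12.6, 10.2, 65.9, 51.0 and 34.8 CPM in unsupplemented wild type (0.78, SE 0.28, adjusted p = 0.15). Both were on the higher side in the mutant of each pair.

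*clec-66* had 6.82, 9.42, 9.24, 7.28 and 8.58 CPM in unsupplemented mutants, against 6.28, 5.76, 3.24, 2.90 and 6.72 CPM in unsupplemented wild type (0.63, SE 0.27, adjusted p = 0.249). *clec-64* had 11 counts in all. With vitamin B12 in wild type the log2 fold changes were 0.40 for *clec-62*, 0.53 for *clec-63*, 1.03 for *clec-65* and 0.97 for *clec-66* (adjusted p 0.0748 to 0.909), and in mutants -0.70, 0.20, 0.28 and 0.30 in the same order.

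**Figure D5:**
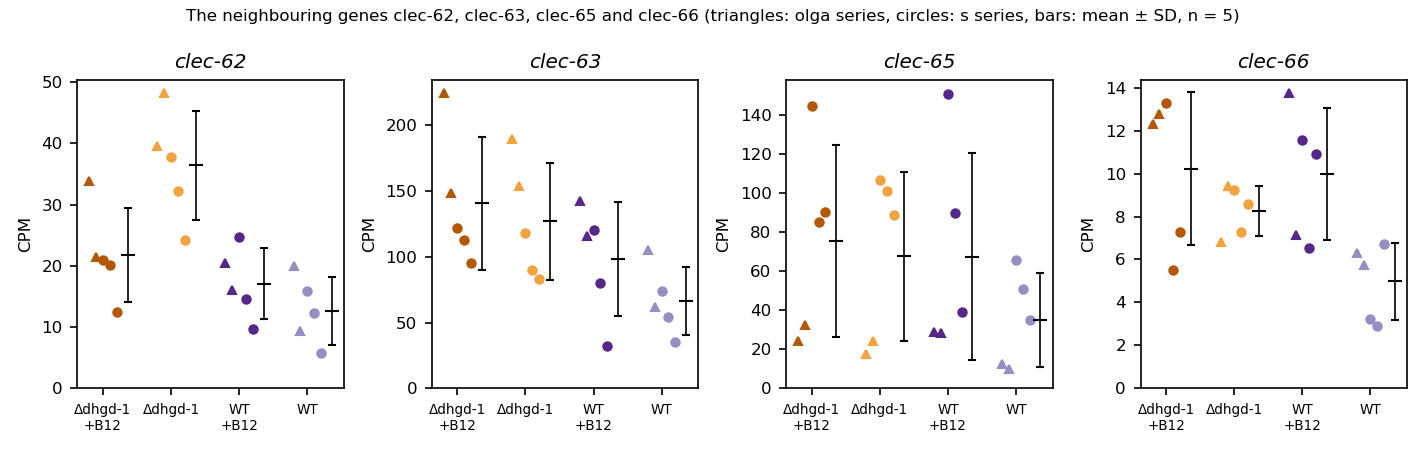
CPM in each library of *clec-62*, *clec-63*, *clec-65* and *clec-66*, which neighbour each other on chromosome II; triangles are the olga series, circles the s series, and bars the mean ± SD (n = 5). *clec-62* does not overlap between unsupplemented mutants and unsupplemented wild type, and *clec-65* splits by series in every group.

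*clec-67* (chrIV:3922165-3925039) and *clec-70* (chrIV:3932708-3936307), both on the plus strand, belong to a cluster of 10 in which no other member passed the filter. *clec-68* between them had 12 counts in all 20 libraries and *clec-71* beyond had 10. With vitamin B12 in mutants *clec-70* fell (log2 fold change -3.67), while *clec-67* did not pass the test (1.10, adjusted p = 0.472). *clec-85* (chrIV:2850886-2855456, plus strand) ends a cluster of 5 with *clec-83* and *clec-84*. *clec-84* had 3.17, 3.20, 7.31, 2.20 and 2.25 CPM in supplemented wild type, against 1.61, 5.49, 3.34, 1.37 and 2.14 CPM in unsupplemented wild type (0.47, SE 0.46, adjusted p = 0.975).

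*clec-47* (chrV:15175759-15176324, plus strand), *clec-48* (chrV:18158026-18159614, plus strand), *clec-7* (chrV:7328392-7330002, plus strand), *clec-210* (chrV:3118377-3120323, plus strand) and *clec-190* (chrIV:15124931-15126121, minus strand) had no other member within 10000 bases. *clec-5* (chrIII:4881888-4883606, minus strand) neighbours *clec-6*, which had 45 counts in all, and *clec-97* on chromosome I neighbours *clec-96*, which had 5. Of 27 members listed for a role in infection or for their tissue, 26 had a row, 18 were tested and 8 were too low to test. Among these 8, *clec-60*, induced by *Staphylococcus aureus*, had 9 counts in all 20 libraries, *clec-42* had 2, and *clec-39* had none, where a count of 0 allows up to 3 counts.

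*clec-41* and *clec-50* reached the mean of 20 counts and were not called in the model with the series term. *clec-41* had 7.05, 11.7, 4.88, 0.734 and 1.22 CPM in supplemented wild type, against 4.03, 5.21, 1.53, 0 and 1.42 CPM in unsupplemented wild type (log2 fold change 1.07, SE 0.51, adjusted p = 0.596). *clec-50* had 110, 74.7, 84.3, 21.6 and 27.04 CPM in supplemented wild type, against 40.6, 40.3, 45.2, 9.77 and 19.6 CPM in unsupplemented wild type (0.93, SE 0.33, adjusted p = 0.272). The ranges of both genes overlapped between the groups. *clec-50* was higher with vitamin B12 in 5 of 5 wild-type pairs and was called with the replicate block, as given above (0.93, adjusted p = 0.0138).

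Regulators and other effectors of worm immunity give the setting of these values. Both lists were chosen with earlier results of these data known, so their shares of calls are not an independent test. All 26 listed regulators were tested. Between the unsupplemented strains 2 of the 26 were higher in mutants, where 1.82% of all tested genes were called higher: *pqm-1*, a zinc finger transcription factor of insulin signalling (log2 fold change 1.86, adjusted p = 0.00174), and *tir-1*, the TIR-domain protein upstream of the p38 kinases (1.16, adjusted p = 0.0146). None was called in any other comparison.

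The other effectors too were listed with earlier results known, so the shares below describe the list and are no independent result. Of 40 other immune effectors 30 were tested, and 9 were called between the unsupplemented strains, all higher in mutants, where 1.82% of all tested genes were called higher. They were the lysozyme gene *lys-2* (1.34, adjusted p = 9.41e-05), the saposin-like *spp-18*, the thaumatin-like *thn-2*, the antimicrobial peptide genes *cnc-4*, *nlp-29* and *nlp-31*, and *dod-22*, *dod-23* and *irg-2*. None was called between the supplemented strains, where 0.55% of all tested genes were. With vitamin B12 in mutants, where 1.86% of all tested genes were called, *asm-3*, *spp-5*, *dod-24*, *irg-4* and *irg-5* were higher and the lysozyme gene *lys-4* lower (-3.26, adjusted p = 5.82e-08). In wild type, where 1.45% of all tested genes were called, *asm-3*, *lys-2*, *spp-8*, *spp-18*, *irg-4*, *irg-5* and *dod-23* were higher and *lys-4* lower (-3.10, adjusted p = 2.13e-07). The effect of vitamin B12 differed between the strains for *lys-2* alone of this list (-1.38, adjusted p = 0.0426).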

How the data were processed

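The authors deposited read counts per gene without normalization, made from Cel-seq2 libraries trimmed with Trimmomatic 0.32, aligned with STAR and counted with ESAT, with pseudogenes discarded. Tool versions for STAR and ESAT, the build, the use of strand and molecular identifiers, and the handling of reads shared by related genes are not given in the sources used here. No column of another series was present. A reference list of gene names gave a symbol for 22497 of 22736 identifiers. The Ensembl WBcel235 annotation gave coordinates, overlapping genes and the number of annotated *clec* genes.

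Groups and replicate numbers came from the sample labels. The series of library names was taken as the sequencing batch, since the study sequenced 2 replicates on one instrument and 3 on another. No label names the instrument. Counts were normalized by TMM and filtered with filterByExpr by group, and edgeR 4.0.16 (R 4.3.3, limma 3.58.1) was run with glmQLFit and glmQLFTest on all 20 libraries with group and series as terms. Same-numbered libraries were on average more alike than others. Over 30 pairs of same-numbered libraries of different groups, deviations from the group means correlated at 0.15 to 0.73 (median 0.51), all over 0.1. Over 48 pairs with other numbers in the same series the range was -0.11 to 0.55 (median 0.29), with 39 over 0.1. The model was therefore also run with replicate number in place of series (replicate block). Calls, standard errors and the fits with a library left out are from the model with series, unless the replicate block is named. That model does not use the pairing, so the calls lost without a library were not examined with the replicate block. Other alternatives were RLE and library totals, other filters, no fold minimum, no series term, DESeq2 1.42.0, fewer libraries, and each library left out. Whether pairs went one way was read from log2(CPM + 0.5). Figures were drawn in Python 3.11.15 with matplotlib 3.10.9.

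On simulated data for the unsupplemented strain comparison (11270 genes), the procedure recovered 37% of genes changed 2-fold and 81% of those changed 4-fold, and 5 of 123 calls were false. The simulated counts held no difference between series and no link between same-numbered libraries, unlike the real ones, so these rates may not carry over. Members and lists were chosen with earlier results of these data known. Named with values were members called in any comparison, the 10 highest by mean CPM, members with known roles and a mean of at least 20 counts, and neighbours of called members within 10000 bases. *clec-4*, *clec-8*, *clec-43*, *clec-146*, *clec-186*, *clec-196*, *clec-39*, *clec-42* and *clec-60* were named after their values were seen. Promoter and protein sequences were not used here.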

Additional observations from a re-analysis of the deposited data

Results flagged for a closer look

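A library lay far from the other 4 of its group for 7 of the 48 group values examined (Dixon's test at the 95% level). Chance flags about 1 in 20 groups when all values come from 1 normal distribution. Here each group joined 2 series of libraries, and *clec-67* and *clec-70* had few counts. The 7 flags are therefore not compared with that rate. *clec-48* had 90.0 CPM in unsupplemented mutant replicate 1, against 26.02 to 43.9 CPM in the others of that group. *clec-67* had 4.62 CPM in unsupplemented mutant replicate 5, with 0.417 to 1.51 CPM in the others, and 0.573 CPM in unsupplemented wild-type replicate 5, with 0 to 0.161 CPM in the others. *clec-7* had 16.04 CPM in supplemented mutant replicate 1 and 2.46 to 5.53 CPM in the others. *clec-85* had 28.2 CPM in the same library and 13.7 to 17.3 CPM in the others. *clec-70* had 0.1835 CPM in supplemented wild-type replicate 6, where the other 4 were at 0, and 1.985 CPM in unsupplemented wild-type replicate 6, with 0 to 0.554 CPM in the others.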

How the results depend on the processing

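The 15 calls of single members gave 303 values under the alternatives. Of these, 215 kept the call, 88 lost it and 0 changed sign, and *clec-47* in both strains and *clec-70* with vitamin B12 in mutants were called in each fit that tested them. Apart from the fits with a library left out, *clec-47* was tested in 11 alternatives and *clec-70* in only 8. *clec-70* had most of its counts in unsupplemented mutants, and fits in which it was too low did not test it. The 7 calls between the unsupplemented strains became 11 without a low-count filter, 11 with the replicate block, 4 at a mean of at least 20 counts, 1 without a series term, and 0 in the olga series and 0 in the s series alone. The 4 calls with vitamin B12 in wild type became 10 without a filter, 8 with the replicate block, 8 with DESeq2, 2 in the 10 libraries compared, and 1 and 2 in the olga and s series. The 4 calls with vitamin B12 in mutants became 2 at a mean of at least 20 counts, 2 without a series term, and 1 and 2 in the olga and s series. The difference between the strains' effects gave 2 calls without a filter. Leaving out 1 library gave 2 to 4 calls with vitamin B12 in mutants, 3 to 6 in wild type, 1 to 6 between the unsupplemented strains, and 0 to 0 between the supplemented strains and for the difference. The cause of these changes was not tested, beside fewer libraries or genes in the fit. The replicate block changed no call other than those given. Depth limits the low members: 157 had a mean under 20 counts, and for them a change was not detectable or rests on few counts.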
